A study of Mus musculus with 2 samples.

Results

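Eosinophils were examined among single CD45+ leukocytes of day 4 *Ptgs*-/- melanomas, in 1 control library and 1 library of NK cell-depleted hosts. Members were chosen by measured transcripts: a cell was counted as an eosinophil when it held at least 1 unique molecular identifier (UMI, a distinct transcript molecule) in at least 2 of *Ccr3*, *Siglecf*, *Alox15*, *Il5ra*, *F5* and *Sema7a*. It also had to hold 0 UMIs of *Csf1r*, *Cd3e* and *Fcgr1*, genes of macrophages and T cells. By this rule 62 of 9798 filtered cells were members, 11 of 5292 in the control library and 51 of 4506 in the NK cell-depleted library. Both groups were 8-week-old C57BL/6 hosts of *Braf* V600E-driven melanoma cells in which *Ptgs1* and *Ptgs2*, the genes of both COX enzymes, had been knocked out. The sample titles and the methods give this knockout, while the genotype label of both samples reads wild-type tumor cells. Control hosts were untreated, and NK cell-depleted hosts were given antibodies on days 0 and 2, 200 µg against NK1.1 and 30 µg against asialo GM1. Live CD45+ cells of 10 pooled tumors were sorted per group, and a few parental melanoma cells were then added to each sample.

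Because each group was 1 library, differences between groups could not be checked in replicates, and p-values are not given. Intervals are 95% intervals for counting error only. The libraries held 24810009 and 23245982 UMIs after filtering, with medians of 4170 (control) and 4893 UMIs per cell. *Gzma*, a granule protease of NK cells, had 333 counts per 1000000 (CPM) in the other cells of the control library and 0 UMIs in the NK cell-depleted one. Both libraries shared 5 cell barcodes, none of them of a member.

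Eosinophils are granulocytes that mature in the bone marrow under interleukin-5 and enter tissues through CCR3, the receptor of the eotaxins. They store toxic proteins in their granules, and in tissues they release cytokines, chemokines and lipid mediators. The rule used 3 surface proteins of the lineage, CCR3, the lectin Siglec-F and the interleukin-5 receptor chain encoded by *Il5ra*. It also used the 15-lipoxygenase gene *Alox15*, the coagulation factor V gene *F5* and *Sema7a*, which encodes a membrane semaphorin.

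*Serpinb2* had the highest fold over neutrophils in all members among genes outside the rule. Its promoter and those of *Ccr3* and *Siglecf*, which encode surface proteins used by the rule, are shown for reference. These are the 250 bases before each start in RefSeq (GRCm38.p6, plus strand), with capitals marking the letters GATAA, the core that GATA factors bind. *Ccr3* lay at chr9:124021721-124021970, *Siglecf* at chr7:43351091-43351340 and the second start of *Serpinb2* at chr1:107511260-107511509.
Ccr3: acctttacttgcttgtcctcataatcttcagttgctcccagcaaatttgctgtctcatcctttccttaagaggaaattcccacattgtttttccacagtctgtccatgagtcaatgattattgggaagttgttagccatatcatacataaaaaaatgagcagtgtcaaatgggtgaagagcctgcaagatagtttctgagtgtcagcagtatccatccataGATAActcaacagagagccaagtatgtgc
Siglecf: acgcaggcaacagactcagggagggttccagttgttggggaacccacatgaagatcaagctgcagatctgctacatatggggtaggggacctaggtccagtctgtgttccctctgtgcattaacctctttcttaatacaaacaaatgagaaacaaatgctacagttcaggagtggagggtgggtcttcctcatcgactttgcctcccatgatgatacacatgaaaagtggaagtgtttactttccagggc
Serpinb2: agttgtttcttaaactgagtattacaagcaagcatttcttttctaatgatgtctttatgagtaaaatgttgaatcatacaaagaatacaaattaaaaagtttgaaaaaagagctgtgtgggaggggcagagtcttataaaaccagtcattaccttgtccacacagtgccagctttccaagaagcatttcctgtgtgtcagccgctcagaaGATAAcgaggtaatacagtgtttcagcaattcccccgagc
The search for GATAA covered both strands (TTATC on the other). *Ccr3* held 1 match at position -29 from its start, the second start of *Serpinb2* held 1 at -40, and *Siglecf* held none. The first start of *Serpinb2*, which is not shown, also held none. Of 15 genes looked up, 12 had a window and 5 of these held the letters in at least 1 window. Among all 32851 promoter windows of this length, 22.6% held them. This share is per window, whereas some of the genes had 2 windows, so it is not a rate per gene.

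Some members also carried genes of other cell classes, and the eosinophil label was not tested apart from the rule. In cells with few UMIs, genes of other classes can be missed. Of the 62 members, 41 carried the genes of no other class (5 control, 36 NK cell-depleted). Another 13 carried at least 3 of the 6 neutrophil genes *Csf3r*, *Cxcr2*, *Il1r2*, *S100a8*, *S100a9* and *Retnlg* (3 and 10). A further 6 carried at least 3 of 12 monocyte and macrophage markers (1 and 5), 1 control cell at least 2 mast cell and basophil markers, and 1 control cell at least 2 NK cell markers. This division was made after the data were seen, so low levels of those markers in the 41 cells are no finding. Values below are for the 41 cells unless all members are named, and the comparisons between libraries are given for both, because the other 21 members held 72.0% of member UMIs in the control library and 54.6% in the NK cell-depleted library.

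The 6 genes of the rule, which chose the cells and are given only as a description, divided in the same way. Among the 41 cells, 36 had a UMI of *Ccr3* or *Alox15*, against 1 of the 13 members with neutrophil genes. Those 13 entered through *Siglecf*, *Sema7a* and *F5*: in the NK cell-depleted library, *Siglecf* had 9 UMIs, *Sema7a* 7 and *F5* 7 in these 10 cells, beside 1 UMI of *Ccr3* and 2 of *Alox15*. In the 41 cells, *Ccr3* stood at 630 CPM in control cells (3 UMIs in 2 cells) and 1852 CPM in NK cell-depleted cells (46 UMIs in 27 cells). *Alox15* stood at 840 and 1651 CPM, *F5* at 630 and 1409 CPM and *Sema7a* at 840 and 886 CPM. *Siglecf* had 1 and 24 UMIs, and *Il5ra* a single UMI in 1 NK cell-depleted cell, which was the only member with all 6 genes. Neutrophils, defined as non-members with at least 3 of the 6 neutrophil genes and none of the 3 excluded genes, had *Ccr3* at 2.46 and 8.41 CPM and *Siglecf* at 34.4 and 32.0 CPM. Most *Alox15* of both libraries lay in the members, 52.6% of its control UMIs and 71.6% of its NK cell-depleted UMIs.

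Cells near the threshold of the rule were mixed. Exactly 2 rule genes were seen in 36 members, 3 in 18, 4 in 5, 5 in 2 and 6 in 1. In the NK cell-depleted library, the 29 members with exactly 2 held *S100a8*, a neutrophil calprotectin subunit, at 7997 CPM and *Cd24a* at 1762 CPM. Of their 304 *S100a8* UMIs, 143 lay in 1 cell. The 22 with 3 or more held 0 UMIs of *S100a8* and *Cd24a* at 4794 CPM. They were not free of other classes: a cell with 4 rule genes carried 5 of the 6 neutrophil genes, and a cell with 3 carried macrophage markers. Just outside, 273 cells had a single rule gene, led by *Sema7a* (114 cells) and *F5* (88 cells). The 67 NK cell-depleted cells with *F5* only held *S100a8* at 5267 and *Cd24a* at 622 CPM. The 19 NK cell-depleted cells with *Siglecf* only held them at 11450 and 735 CPM, and the 18 such control cells at 8950 and 661 CPM. A further 14 cells met the gene rule but held a UMI of an excluded gene, and 4 lay outside the limits on UMIs, genes or mitochondrial UMIs.

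**Figure D1:**
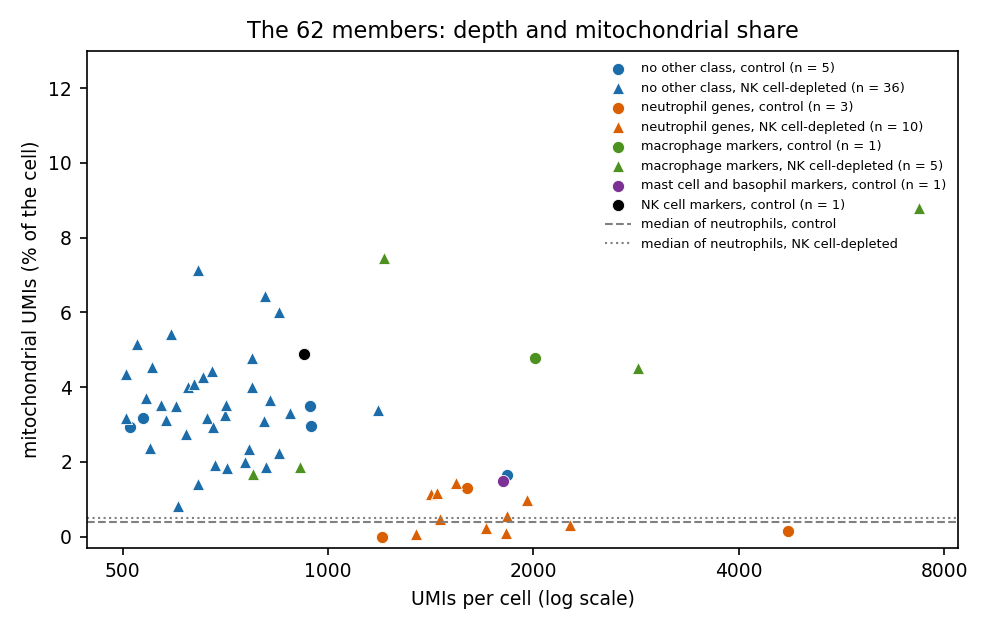
Each point is 1 of the 62 members, with its UMIs on a log axis and the share of its UMIs from mitochondrial genes in percent; color gives the class of other genes, circles are control and triangles NK cell-depleted cells, and lines mark the neutrophil medians (0.391% and 0.486%). Members with neutrophil genes hold over 1000 UMIs and lie between 0% and 1.43%, whereas those without other classes sit mostly under 1000 UMIs, between 0.829% and 7.14%, so that both sets overlap. The division itself favored this difference in depth.

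Mitochondrial content, which the rule did not use beyond the upper limit of 10%, differed in its median between these cells, with overlap. Its median was 2.96% (control) and 3.44% (NK cell-depleted) in the 41 cells. The 13 members with neutrophil genes had 0.148% and 0.514%, beside 0.391% and 0.486% in neutrophils, and ran up to 1.43%. The 41 cells ran down to 0.829%, and their medians lay near those of all cells of their library (3.01% and 3.55%). Eosinophils without genes of other classes were also shallow: their median was 941 UMIs (512 to 1830) in the control library and 669.5 UMIs (506 to 1183) in the NK cell-depleted library. Of these cells, 4 of 5 and 35 of 36 held fewer than 1000 UMIs. The 13 had medians of 1600 and 1621.5 UMIs, and neutrophils of 1154 and 1294 UMIs. Deeper cells show more genes, so the division favored shallow cells among the 41. It favored deeper ones among the 13 and among neutrophils, which needed at least 3 neutrophil genes. This contrast in depth is therefore not read as a result.

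The first comparison was the share of eosinophils among sorted leukocytes in the presence and absence of NK cells. Eosinophils made up 0.208% of control cells (0.104 to 0.372) and 1.13% of NK cell-depleted cells (0.844 to 1.485). The control share was 0.184 times that of the NK cell-depleted library (0.0863 to 0.357), so that the share in the NK cell-depleted library was 5.445 times the control share. For the 41 cells the shares were 0.0945% (0.0307 to 0.220) and 0.799% (0.560 to 1.104), a ratio of 0.118 (0.0362 to 0.302). The 13 members with neutrophil genes had shares of 0.0567% and 0.222%, with a ratio of 0.255 (0.0452 to 0.992). Neutrophils made up 6.12% and 9.48% (ratio 0.646, 0.558 to 0.748), and monocytes and macrophages, cells with UMIs of *Csf1r* and *Fcgr1* and none of *Cd3e*, 33.2% and 34.5%. These intervals count cells of 1 library per group, so a difference between the ratios of eosinophils and neutrophils was not tested.

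Depth bears on these shares directly. No called cell of either library held fewer than 500 UMIs, and many eosinophils lay just above that limit, so fewer eosinophils and eosinophils with less RNA cannot be told apart. When every cell was thinned to 500 UMIs, 5 of 5292 control and 29 of 4506 NK cell-depleted cells met the rule, a ratio of 0.147 (0.0444 to 0.384). Thinning to 1000 UMIs left 3 and 8 members and a ratio of 0.319 (0.0545 to 1.33). Among cells with 2000 to 10000 UMIs there were 2 and 3 members, and the ratio was 0.571 (0.0477 to 4.985). These last intervals include both 1 and the neutrophil ratio. Without the cells carrying NK cell markers in the denominator, the ratio of all members was 0.206. The 1 control member with NK cell markers was still counted as a member there.

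**Figure D2:**
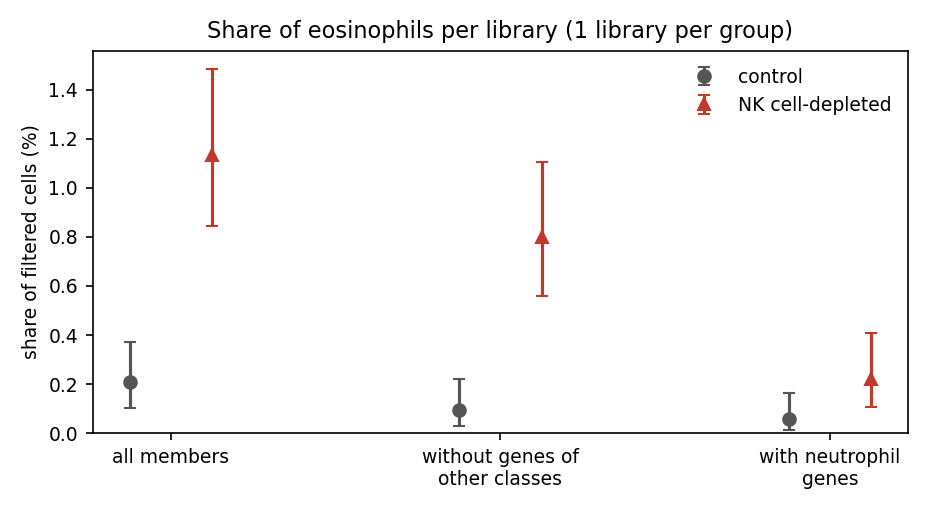
Share of filtered cells in percent, for all members, for those without genes of other classes and for those with neutrophil genes, in the control (circles) and NK cell-depleted (triangles) library; bars are exact 95% binomial intervals for counting error, with 1 library per group. The 2 intervals do not overlap for all members (0.208% against 1.13%) or for those without genes of other classes, and overlap for those with neutrophil genes.

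The next comparison described what eosinophils expressed beside the genes of the rule. CPM values are UMIs summed over the cells of a class and library, and folds add 5 CPM on both sides. Against all other cells of their library, 21 of 217 genes with at least 50 UMIs in the members were past 4-fold higher in both libraries (9.68%), and 16 of 70 in the 41 cells (22.9%). The 217 held 3 genes of the rule, all 3 among the 21, where the rule itself fixed this. The 70 held 0 genes of the rule. The median log2 of the lower of both folds was 0.15 over the 217 genes and 0.96 over the 70. The minimum of 50 UMIs applied to the members, so genes abundant in them entered and genes low in them could not. These shares and medians are therefore not read as a result. Among the 20 leading genes of all members were *Retnlg*, *Serpinb2*, *Cd24a*, *Gadd45a*, *Thbs1* and *Egr1*, together with genes of neutrophils such as *S100a8*, *Il1r2* and *Hdc*. In the 41 cells, *Retnlg*, *Cd24a*, *Gadd45a*, *Cebpb*, *Jund* and *Fosl2* led.

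*Cd24a*, a heavily glycosylated surface protein of granulocytes, was found in all 41 cells. It had 17 UMIs in 5 of 5 control cells, or 3569 CPM (2079 to 5715), and 115 UMIs in 36 of 36 NK cell-depleted cells, or 4630 CPM (3823 to 5558). Neutrophils had 714 and 940 CPM, and monocytes and macrophages 23.2 and 28.6 CPM, so both libraries gave the same order. With every cell thinned to 500 UMIs, *Cd24a* was seen in 5 of 5 and 94.4% of the 41 cells, 29.0% and 32.1% of neutrophils, and 0.854% and 1.29% of monocytes and macrophages.

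The 16 chemokine genes of the list were represented by 10 with a UMI in the 41 cells, and *Ccl6* and *Ccl9*, a pair of related CC chemokines of myeloid cells, stood out against neutrophils. *Ccl6* had 23 UMIs in 5 of 5 control cells (4829 CPM) and 142 UMIs in 33 of 36 NK cell-depleted cells (5717 CPM), against 1065 and 1154 CPM in neutrophils and 1263 and 1796 CPM in monocytes and macrophages. *Ccl9* had 2309 CPM (11 UMIs) and 1973 CPM (49 UMIs), against 68.7 and 87.5 CPM in neutrophils. Monocytes and macrophages had *Ccl9* at 950 and 1273 CPM, so *Ccl9* separated eosinophils from neutrophils more than from macrophages.

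*Serpinb2*, which encodes plasminogen activator inhibitor 2, was seen in eosinophils of both libraries. It had 38 UMIs in 12 of 36 NK cell-depleted cells (1530 CPM) and 1 UMI in 1 of 5 control cells, a ratio of 0.137 (0.00339 to 0.812). Neutrophils held 0 and 1.68 CPM and monocytes and macrophages 2.77 and 5.30 CPM. With every cell thinned to 500 UMIs it was seen in 1 of 5 control (0.505 to 71.6%) and 27.8% of NK cell-depleted eosinophils (14.2 to 45.2), shares that do not differ beyond counting error. In monocytes and macrophages the thinned shares were 0.114% and 0.257%.

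*Thbs1*, *Vegfa* and *Retnlg* encode secreted proteins, a matricellular protein, an angiogenic factor and a resistin-like peptide. *Thbs1* had 9238 CPM in the control library, with 30 of 44 UMIs in 1 cell, and 4993 CPM in NK cell-depleted cells (124 UMIs in 28 cells), against 3071 and 2982 CPM in neutrophils. *Vegfa* had 420 CPM (2 UMIs) and 1409 CPM (35 UMIs in 19 cells), against 346 and 269 CPM in neutrophils. *Retnlg* was read as a neutrophil gene by the division above, yet it had 5249 CPM (25 UMIs in 4 cells) and 5355 CPM (133 UMIs in 21 cells, 40 of them in 1 cell) in the 41 cells, against 1365 and 1164 CPM in neutrophils. Of all members, 27 had *Retnlg* without *S100a8* or *S100a9*, whereas 742 of 751 neutrophils had *S100a8* or *S100a9*.

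Among receptors and surface proteins, 9 of 13 cytokine receptor genes, 7 of 13 chemoattractant receptor genes and 17 of 21 adhesion and surface genes had a UMI in the 41 cells. *Il1rl1*, the receptor of interleukin-33, had 1 UMI in the control library and 20 UMIs in 13 cells (805 CPM) of the NK cell-depleted library, against 17.2 and 26.9 CPM in neutrophils. *Gapt*, a transmembrane adaptor, had 420 CPM (2 UMIs) and 1087 CPM (27 UMIs in 16 cells), against 36.8 and 28.6 CPM. *Csf2rb*, the chain shared by the receptors of interleukin-5, interleukin-3 and GM-CSF, had 3 UMIs in 1 control cell and 2 UMIs in the NK cell-depleted cells. *Cxcr4* had 1 and 14 UMIs, with 564 CPM in the NK cell-depleted library, against 1640 and 2304 CPM in neutrophils. Of 6 prostaglandin receptor genes only *Ptger4* was seen, with 1 UMI, and *Ptgdr2*, a prostaglandin D2 receptor typical of eosinophils, had 0 UMIs. With a floor of 3 counts per library, a count of 0 allows up to 630 CPM in the 5 control cells and 121 CPM in the 36 NK cell-depleted cells.

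The granule proteins that name the lineage were not detectable. Of 7 such genes only *Ear6*, an eosinophil-associated ribonuclease, had a UMI in the 41 cells, and it had 1. The major basic protein gene *Prg2* and the eosinophil peroxidase gene *Epx* had 0 UMIs. The lineage transcription factors were as sparse, with 1 UMI of *Gata1*, 2 of *Cebpe* and 0 of *Gata2*. *Cebpb*, a factor of granulocytes and macrophages, had 5879 CPM (28 UMIs in 5 of 5 cells) and 9421 CPM (234 UMIs in 35 of 36 cells), near the 5776 and 7648 CPM of neutrophils and above the 873 and 1340 CPM of monocytes and macrophages.

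Of 16 cytokine genes, 11 had a UMI in the 41 cells. *Il4*, a type 2 cytokine, had 1 UMI in the control library and 4 UMIs in 2 cells of the NK cell-depleted library, and *Il13* had 0. *Il6* had 2 UMIs in 1 cell and 9 UMIs in 4 cells, and neutrophils had 0 UMIs of it in either library. *Il1b* had 1890 CPM, from 9 UMIs in 1 cell, and 886 CPM (22 UMIs in 8 cells), against 26290 and 24180 CPM in neutrophils. Of 10 lipid mediator genes 7 were seen. *Ptgs2*, the COX-2 gene, which the hosts' own cells keep, had 1890 CPM, from 9 UMIs in 1 cell, and 2778 CPM (69 UMIs in 21 cells), against 7873 and 8275 CPM in neutrophils. *Alox5ap*, the partner of 5-lipoxygenase in leukotriene synthesis, had 420 and 1087 CPM.

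**Figure D3:**
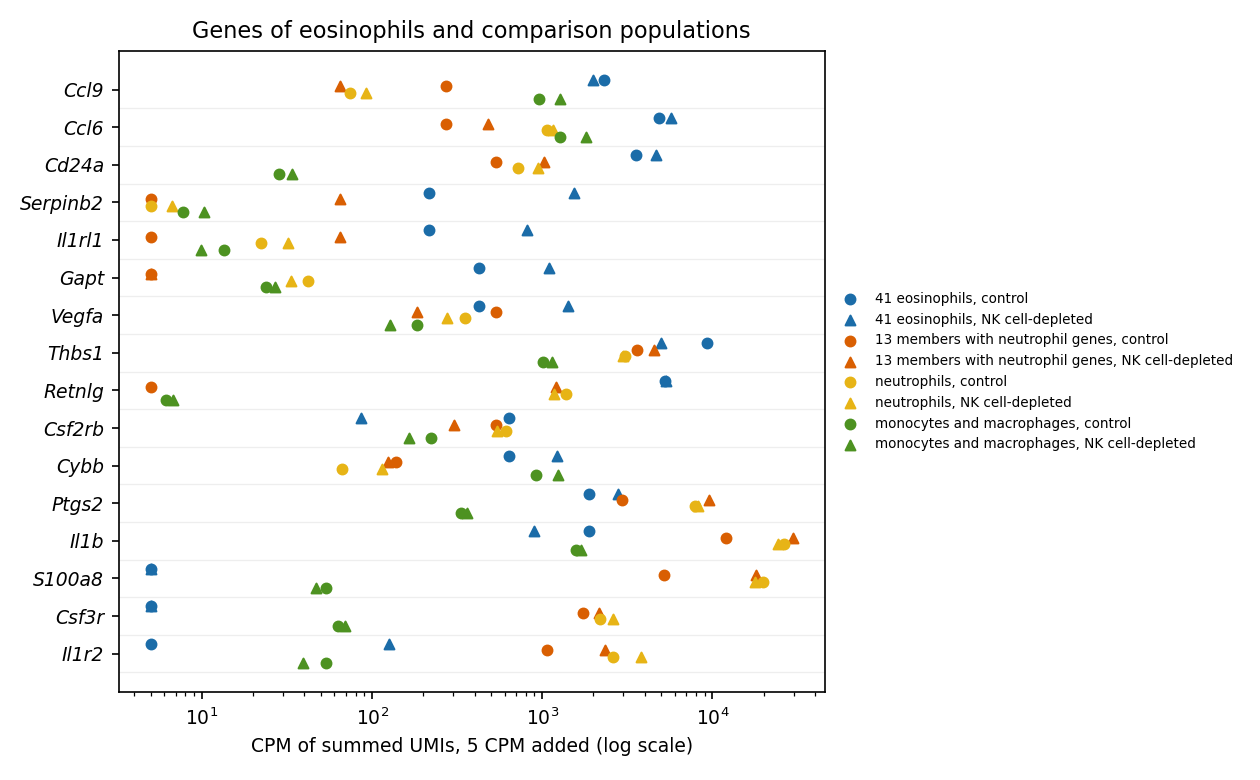
Summed CPM with 5 CPM added (log axis) of 16 genes, chosen after their values were seen, in the 41 eosinophils without genes of other classes, the 13 members with neutrophil genes, neutrophils, and monocytes and macrophages; circles are control and triangles NK cell-depleted. The 13 members lie nearer to neutrophils than to the 41 cells for *Il1b*, *Ccl6* and *Cd24a*, and for *S100a8* and *Csf3r*, where the division itself fixed this, while the 41 cells lie above neutrophils for *Ccl9*, *Ccl6*, *Cd24a*, *Serpinb2*, *Il1rl1* and *Gapt*.

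Neutrophils are the other granulocytes of these tumors, so the members were also compared with them gene by gene. Of 217 genes, 7 were past 4-fold higher in both libraries (3.23%) and 1 past 4-fold lower (0.461%). Among the 7 were *Alox15*, *Ccr3* and *F5*, genes of the rule, where the rule itself fixed this. In the 41 cells 4 of 70 were past 4-fold higher (5.71%) and 0 past 4-fold lower. The minimum of 50 UMIs applied to the members, so genes far lower than in neutrophils could not enter: *S100a8*, *S100a9* and *Csf3r*, at 0 UMIs in the 41 cells, were not among the 70, and the low counts of lower genes were set by this minimum. The median log2 of the lower fold was -0.04 over the 217 genes and 0.44 over the 70. The same minimum favored genes abundant in the members, so these medians and the counts of higher genes are not read as a result. *Ccl9*, *Cd24a*, *Jund* and *Ccl6* had the highest lower folds in the 41 cells. *Jund*, a subunit of the AP-1 transcription factor, had 7138 CPM (34 UMIs) and 6281 CPM (156 UMIs), against 1137 and 1359 CPM in neutrophils. *H2-K1*, a heavy chain of MHC class I, had 3989 CPM (19 UMIs) and 5798 CPM (144 UMIs), against 1215 and 1514 CPM. *Fn1* was among the higher genes of all members, but 39 of its 39 control UMIs and 54 of its 58 NK cell-depleted UMIs lay in 1 cell each, both with macrophage markers.

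The list of neutrophil markers summed to 47450 and 46330 CPM in neutrophils, 10890 and 44160 CPM in the 13 members, and 5459 and 5717 CPM in the 41 cells, where *Retnlg* gave 25 of 26 and 133 of 142 UMIs. *S100a8*, *S100a9* and *Csf3r* were at 0 UMIs in the 41 cells. Monocyte and macrophage markers summed to 6 and 19 UMIs in the 41 cells. T cell markers had 1 UMI, B cell markers 4, and NK, dendritic and melanoma cell markers 0.

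The last comparison set control against NK cell-depleted eosinophils. Of 217 genes, 27 were past 2-fold higher in control (12.4%) and 41 past 2-fold lower (18.9%), and the median log2 ratio of control over NK cell-depleted (0.5 UMI added) was -0.30. The minimum of 50 UMIs was reached mostly through the NK cell-depleted members (54703 against 17032 UMIs), so genes low in control could pass more easily than genes low in NK cell-depleted members, and the split between higher and lower is not read as a result. In the 41 cells 6 of 70 genes were past 2-fold higher (8.57%) and 12 past 2-fold lower (17.1%), with a median of -0.14. *Retnla*, a resistin-like gene of alternatively activated macrophages, had 0 UMIs in all control members and 62 UMIs in 9 NK cell-depleted members, 47 of them in 8 of the 41 cells. The other cells had it at 888 and 1049 CPM, and neutrophils at 46.6 and 384 CPM.

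*Actg1*, the gene of cytoplasmic gamma-actin, was lower in control eosinophils. In the 41 cells it had 44 UMIs (9238 CPM) in control and 799 UMIs (32170 CPM) in NK cell-depleted eosinophils, a ratio of 0.287 (0.207 to 0.389), and in all members the ratio was 0.236 (0.189 to 0.292). The 5 control cells held 5.86, 7.41, 7.65, 8.5 and 22.4 UMIs of *Actg1* per 1000 UMIs of the cell. The 36 NK cell-depleted cells ran from 0 over a median of 33.8 to 61.3 per 1000. The groups overlapped, with 26 of 36 NK cell-depleted cells above the highest control cell. *Actg1* was also lower in control neutrophils (9407 against 12540 CPM), monocytes and macrophages (3654 against 5070 CPM) and all other cells (4326 against 6217 CPM).

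*Basp1* and *Cebpb* were lower in control as well. *Basp1*, a membrane-bound signaling protein gene, had 5 UMIs (1050 CPM) and 103 UMIs (4147 CPM), a ratio of 0.253 (0.0805 to 0.610), or 0.324 (0.168 to 0.573) in all members. Neutrophils had 1188 and 873 CPM, the opposite order. *Cebpb* had a ratio of 0.624 (0.406 to 0.926), or 0.452 (0.338 to 0.595) in all members, and *G0s2*, an inhibitor of fat breakdown, 1 UMI against 54 UMIs in 17 cells. By the values given above, *Cebpb* was also lower in control neutrophils and in control monocytes and macrophages.

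Higher in control in the 41 cells were *Samhd1*, *Btg2* and *Malat1*, of which *Btg2* was not higher in all members. *Samhd1*, which encodes a nucleotide hydrolase with antiviral activity, had 34 UMIs in 5 of 5 control cells (7138 CPM), 19 of them in 1 cell, and 41 UMIs in 22 of 36 NK cell-depleted cells (1651 CPM). The ratio was 4.32 (2.66 to 6.98), and 2.14 (1.44 to 3.155) in all members. Per 1000 UMIs the control cells held 1.87, 4.25, 6.35, 7.81 and 10.4, and the NK cell-depleted cells ran from 0 over a median of 1.49 to 7.91. The groups overlapped, and 24 of 36 lay below the lowest control cell, 14 of them at 0. That control cell held only 1 UMI of *Samhd1* among 535 UMIs, so such small counts do not separate the groups. Neutrophils had *Samhd1* at 886 and 777 CPM. *Btg2*, an antiproliferative immediate early gene, had a ratio of 1.94 (1.35 to 2.75), with 24 of 45 control UMIs in 1 cell, and of 0.907 (0.691 to 1.18) in all members. The nuclear RNA *Malat1* had 27500 and 11840 CPM, a ratio of 2.32 (1.88 to 2.86), with 72 of 131 control UMIs in 1 cell. This was the same control cell, of 1830 UMIs, that held the most *Samhd1*, *Thbs1* and *Ptgs2*. In all members the *Malat1* ratio was 2.28 (2.06 to 2.53). *Malat1* was higher in control in every class compared, with 44630 and 28930 CPM in neutrophils and 26270 and 14650 CPM in monocytes and macrophages.

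**Figure D4:**
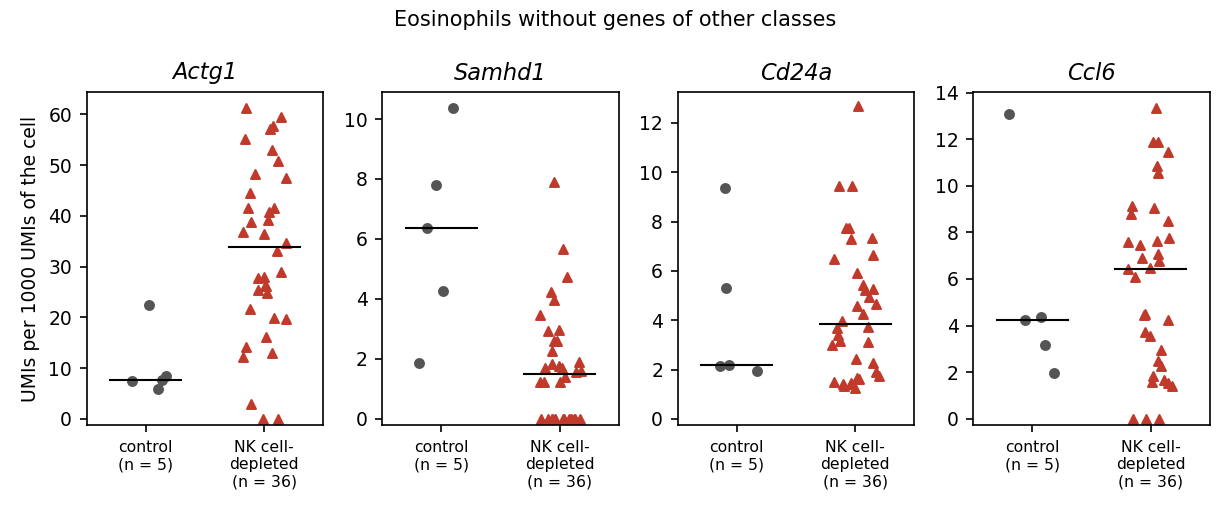
UMIs of *Actg1*, *Samhd1*, *Cd24a* and *Ccl6* per 1000 UMIs of the cell, in each eosinophil without genes of other classes; circles are the 5 control cells, triangles the 36 NK cell-depleted cells and lines the medians over cells. The *Actg1* median is 7.65 against 33.8 and the *Samhd1* median 6.35 against 1.49, while *Cd24a* and *Ccl6* overlap widely.

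NK cells are a main source of interferon-gamma, so the interferon lists were compared as well. The 29 genes of the IFN-gamma response list, 17 with a UMI in the 41 cells, summed to a control over NK cell-depleted ratio of 1.23 (0.933 to 1.60) in these cells and of 0.881 (0.737 to 1.05) in all members. Both intervals include 1. Without the cell with the most UMIs of the list in each library, the ratio in the 41 cells was 0.815. *H2-K1* had a ratio of 0.688 (0.403 to 1.11) in the 41 cells and of 0.531 (0.366 to 0.750) in all members, and *B2m*, the light chain of MHC class I, 1.04 and 0.735.

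The 28 genes of the type I interferon response list, 15 with a UMI in the 41 cells, gave a ratio that rested on single cells. In the 41 cells they had 33 UMIs (6928 CPM) in control and 28 UMIs (1127 CPM) in NK cell-depleted eosinophils, a ratio of 6.15 (3.60 to 10.6). However, 24 of the 33 control UMIs lay in 1 cell of 512 UMIs, 14 of them of *Rsad2*. Beside these 24, the cell held 10 UMIs of *Cxcl10*, a gene of the IFN-gamma list. This cell held 1 UMI each of *Alox15*, *Sema7a* and *Cd24a* and none of *Ccr3* or *Retnlg*. Per 1000 UMIs the 5 control cells held 0, 0, 2.13, 3.83 and 46.9, and 21 of 36 NK cell-depleted cells were at 0, with the highest at 8.49. Without the top cell of each library the ratio was 2.32. In all members it was 1.07 (0.832 to 1.36), with 37 of 91 control UMIs in the cell with mast cell and basophil markers and 106 of 274 NK cell-depleted UMIs in 1 cell with neutrophil genes. Neutrophils had a ratio of 1.59 (1.52 to 1.67).

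**Figure D5:**
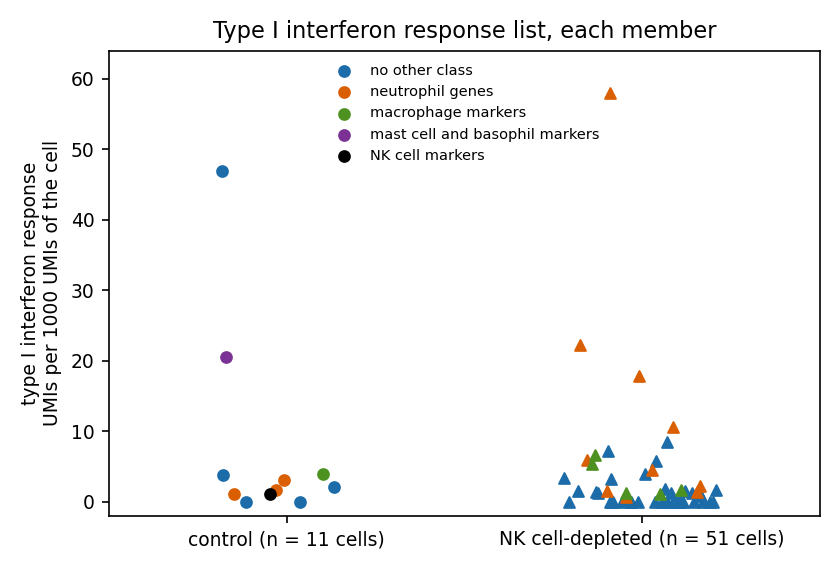
UMIs of the type I interferon response list per 1000 UMIs of the cell, in each of the 11 control (circles) and 51 NK cell-depleted (triangles) members, colored by class. Most members lie near 0, and a few cells, 1 of them a control cell at 46.9 without genes of another class, hold most of the signal.

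The remaining lists often differed between the 41 cells and all members. Chemokines had ratios of 1.46 (1.14 to 1.85) in the 41 cells and 1.58 (1.365 to 1.82) in all members, or 1.30 and 1.097 without the top cell of each library. Cytokines had 1.70 (1.31 to 2.185) in the 41 cells and 0.946 (0.824 to 1.08) in all members, on opposite sides of 1. However, 48 of the 82 control UMIs of the 41 cells lay in 1 cell. Without the top cells the cytokine ratios were 1.20 and 1.08, on the same side. Immediate early and heat shock genes had 1.18 (1.04 to 1.34) and 0.868 (0.798 to 0.942), again on opposite sides, and 0.947 in the 41 cells without the top cells. NF-kB response genes had 1.39 (1.02 to 1.875) and 1.44 (1.22 to 1.70), and 1.01 in all members without the top cells. Transcription factors had 0.635 (0.425 to 0.918) and 0.660 (0.529 to 0.818), mostly through *Cebpb* in the 41 cells (28 of 32 and 234 of 263 UMIs). Neutrophils had a ratio of 0.802 (0.767 to 0.838) for this list. Hypoxia and glycolysis genes had 1.03 (0.614 to 1.66) in the 41 cells and 1.91 (1.53 to 2.38) in all members, but 0.396 and 0.752 without the top cells. Lipid mediator enzymes had 0.769 (0.441 to 1.27) and 0.705 (0.545 to 0.901), or 0.368 and 0.602 without the top cells. In the 41 cells, 13 of their 18 control UMIs lay in 1 cell. Adhesion and surface proteins had 0.917 and 0.857, and survival and apoptosis genes 1.20 and 1.01, with intervals that include 1. MHC class II genes had 15 and 8 UMIs in the 41 cells, with 14 of the 15 in 1 control cell. *Osm*, a cytokine of the interleukin-6 family, had a ratio of 3.24 (1.69 to 6.03), and of 2.43 (1.43 to 4.08) in all members, but 15 of its 18 control UMIs lay in 1 cell.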

How the data were processed

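Leukocytes were profiled with the Chromium Single Cell 3' kit, version 3 chemistry. The authors deposited, per library, a matrix of UMI counts per gene and called cell. The file headers name Cell Ranger 3.0.2, the methods another release, and the submitters' processing notes name the build mm10. The authors' cell filter (500 to 15000 UMIs, 200 to 4000 genes, at most 10% mitochondrial UMIs) was applied to the 11651 called cells, of which 9798 remained. No doublet caller was run on these cells, and doublets were not removed. The matrix lists 31053 genes.

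Members were chosen by the gene rule in Python 3.11.15 (numpy 2.4.6, scipy 1.17.1, pandas 2.3.3), with figures drawn in matplotlib 3.10.9. The members, the rule and the gene lists were chosen with earlier results of these data known. UMIs were summed per class and library. Shares carry exact (Clopper-Pearson) binomial intervals, sums exact Poisson intervals and ratios exact conditional binomial intervals, all at 95%. They cover counting error only. Scripts were tested on simulated data. Genes were named from 26 lists, from the 20 highest folds over other cells, from the 10 highest and 10 lowest folds against neutrophils, and from the 10 highest and 10 lowest ratios between libraries. The last were limited to genes with an interval that leaves out 1 and at most 25% of UMIs in 1 cell. Genes needed at least 50 UMIs in the members for these ranks. Mitochondrial and ribosomal protein genes were left out of the ranks. *Gapt*, *Il5* and *Csf2* fell outside these rules and were chosen after their values were seen. The alternatives are given in the closing section. The authors' log2(CPM + 1) table was not used.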

Additional observations from a re-analysis of the deposited data

How the results depend on the processing

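The share ratio of control over NK cell-depleted eosinophils (0.184) stayed between 0.111 and 0.319 under 10 of 11 settings, and was 0.571 with cells of 2000 to 10000 UMIs only, which left 2 and 3 members. Counts of genes rest on the number tested, 217 unless given, and genes of the rule were not left out of them. The 21 genes higher than in other cells became 11 of 43 with at least 3 of the 6 rule genes, 65 at 2-fold and 45 of 628 at a minimum of 20 UMIs. The 7 genes higher than in neutrophils became 3 of 43 with at least 3 of the 6 genes, 3 of 49 with at least 2 of *Ccr3*, *Siglecf*, *Alox15* and *Il5ra*, 4 of 70 without the genes of another class, 30 at 2-fold and 21 of 628 at a minimum of 20 UMIs, and the 1 lower gene became 6 at 2-fold and 0 of 70 without the genes of another class. The 27 genes higher and 41 lower in control became 111 and 149 of 350 without upper limits on UMIs and genes, 8 and 13 of 43 with 2000 to 10000 UMIs, 4 and 5 of 43 with at least 3 of the 6 genes, 4 and 10 of 49 with at least 2 of the 4, 106 and 93 of 487 without the excluded genes, 16 and 18 of 128 with fewer than 3 neutrophil genes, 6 and 12 of 70 without the genes of another class, 85 and 111 of 628 at a minimum of 20 UMIs, 13 and 78 without the member with most UMIs of each gene, and 6 and 11 of 44 with members thinned to 1000 UMIs. Without upper limits 1 deep control cell was added. The chemokine ratio (1.58 in all members) turned to 0.395 without upper limits and to 0.886 with 2000 to 10000 UMIs. The type I interferon ratio ranged from 0.283 to 8.15 over 13 settings. Apart from settings that leave fewer cells or genes by construction, the cause was not tested. The settings by neutrophil genes, by genes of another class, thinned to 500 UMIs and without the deepest members were chosen after seeing the data. No paired analysis was possible because each group was 1 library, and none could be left out. Depth limits every gene value: the 5 control eosinophils without genes of other classes held 4763 UMIs in all. Of these, 1830 lay in 1 cell. The same cell held the top counts of these 5 cells for *Thbs1*, *Ptgs2*, *Samhd1* and *Malat1*.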

Other observations

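Genes of eosinophil chemoattractants and growth factors were read in the cells that were not members, as values only. *Ccl24*, which encodes an eotaxin and ligand of CCR3, had 468 UMIs (18.9 CPM) in the control and 907 UMIs (39.1 CPM) in the NK cell-depleted library. *Ccl11*, another eotaxin gene, had 1 and 2 UMIs. *Ccl5*, whose product also binds CCR3, had 405 and 53.2 CPM. *Il5*, the growth factor of the lineage, had 41 and 16 UMIs, and *Csf2*, which encodes GM-CSF, 109 and 85 UMIs. Whether any of these bears on the share of eosinophils was not tested.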
